A study of Mus musculus with 8 samples.

Results

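H2-Bl and Gm10499 are transcripts of the mouse major histocompatibility complex (MHC) on chromosome 17, and their signal in the brainstem was compared between DBA/1 and C57BL/6 mice. They are 2 of the 60804 transcripts in the authors' table of array values, with 1 probe each, and both were chosen by their measured strain difference on these same arrays, so the differences below are a description and carry no test. The arrays held whole-brainstem RNA from male mice of 5 weeks, 4 of each strain, with 1 mouse per array. DBA/1 is an inbred strain in which loud sound triggers seizures and respiratory arrest, and C57BL/6 is the inbred strain that resists them. None of the mice had been exposed to the sound stimulus, and the tissue was taken under isoflurane anaesthesia. The question of the comparison was which transcripts differ between the strains before any seizure.

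The MHC is a dense cluster of genes whose class I molecules carry peptides to the cell surface, where CD8 T cells read them. The classical class I genes of the mouse, of the K, D and L loci, vary widely between inbred strains, and the neighbouring Q, T and M regions hold many nonclassical class I genes and pseudogenes that differ in number and sequence from strain to strain. C57BL/6 carries the MHC haplotype H2b and DBA/1 the haplotype H2q. Neurons and glia make little class I under resting conditions, and interferon raises it. The probes are those of the array design, and no DBA/1 sequence was used here.

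The probes are shown first because every value below is the signal of 1 probe per transcript. The H2-Bl probe lies at chr17:36080129-36080188 (GRCm38, minus strand) and is 60 bases long. The capitals mark AATAAA, the core of the usual polyadenylation signal. The Gm10499 probe lies within chr17:36142725-36142942 (GRCm38, minus strand), and nothing in it is marked.
H2-Bl: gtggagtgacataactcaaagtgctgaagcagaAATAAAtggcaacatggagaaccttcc
Gm10499: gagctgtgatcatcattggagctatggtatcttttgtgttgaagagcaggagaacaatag
The 3′ end of the H2-Bl probe lies 14 bases from the 3′ end of its listed transcript ENSMUST00000173149, which spans chr17:36080115-36081987. Its genomic interval is as long as the probe, so it lies in 1 exon. AATAAA begins at base 34 of the probe, counted from its 5′ end, and 193 of the 1195 probe sequences that the study's lists give hold it (16.2%). Its reverse complement TTTATT was in 37 of them (3.1%) and in neither of the probes shown here. The Gm10499 probe also has 60 bases but spans 218 bases of the genome, 158 more than its length, so it crosses at least 1 intron of ENSMUST00000174778 (chr17:36141758-36145744).

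Both transcripts are classed as noncoding on the array, one as overlapping an exon of a gene in sense and the other as intergenic. The RefSeq gene table of GRCm38.p6 classes H2-Bl (chr17:36080110-36084249) as a transcribed pseudogene but Gm10499 (chr17:36141748-36146200) as protein coding, so the name noncoding RNA does not hold for Gm10499 in that table. Each probe lies inside the RefSeq gene of its name. The genes are 57.5 kb apart, and 5 RefSeq genes lie wholly between them. These are H2-T-ps, BC023719, H2-T10, Gm7030 and Gm9574, among them genes of the T region. Gm8909 and 2410017I17Rik overlap the Gm10499 gene but not the position of its probe.

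The Gm10499 probe resembled probes of other class I genes in sequence. Each probe was compared without gaps with the other 1194 listed probe sequences in both orientations. The highest-scoring match of the Gm10499 probe was to the probe of H2-Q6, a nonclassical class I gene of the Q region. In the next lines, capitals mark the bases that are identical in the aligned stretch of a pair.
Gm10499 against H2-Q6: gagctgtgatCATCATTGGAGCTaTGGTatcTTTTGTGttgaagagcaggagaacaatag
H2-Q6: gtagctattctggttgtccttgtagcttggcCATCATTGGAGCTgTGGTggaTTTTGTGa
Gm10499 against H2-L: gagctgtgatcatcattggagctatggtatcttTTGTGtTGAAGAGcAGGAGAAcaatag
H2-L: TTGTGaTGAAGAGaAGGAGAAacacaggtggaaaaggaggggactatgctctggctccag
With H2-Q6, 24 of 28 aligned bases were identical (85.7%), over bases 11 to 38 of the Gm10499 probe. With H2-L, a classical class I gene, 19 of 21 were identical (90.5%), over bases 34 to 54. The highest-scoring match of the H2-Bl probe was 16 of 19 bases, to a probe in the opposite orientation that is named for no H2 gene. Whether RNA of other class I genes binds the Gm10499 probe was not tested. The values of H2-Q6 and H2-L on each DBA/1 array are given further below.

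H2-Bl was detected in every mouse and was higher in DBA/1. Values are quantile-normalized array signals on the log2 scale. In C57BL/6 they were 7.34, 7.34, 7.24 and 7.16 for replicates 1 to 4, with a mean of 7.27 ± 0.0843 (SD, n = 4). In DBA/1 they were 11.46, 11.13, 11.87 and 11.03, with a mean of 11.37 ± 0.377 (SD, n = 4). The strains did not overlap, and the lowest DBA/1 value lay 3.69 above the highest C57BL/6 value. The difference was 4.10 ± 0.193 (SE), which is 17.2-fold. It was 4.12, 3.79, 4.62 and 3.87 between the DBA/1 and the C57BL/6 array of slide columns 1 to 4, as read from the scanner's position numbers.

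Gm10499 was detected in DBA/1 and was near background in C57BL/6. The scanner software calls a spot well above background when its signal clears the background noise by a set margin. Gm10499 met this on 4 of 4 DBA/1 arrays and on 0 of 4 C57BL/6 arrays, although the weaker call of a positive and significant signal was made on all 8. The C57BL/6 values were 3.06, 2.32, 2.32 and 2.68, of which the 2 lower ones are the floor set on the intensities, with a mean of 2.60 ± 0.353 (SD, n = 4). The DBA/1 values were 6.65, 6.11, 5.63 and 5.83, with a mean of 6.06 ± 0.441 (SD, n = 4). The lowest DBA/1 value lay 2.57 above the highest C57BL/6 value.

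Since no C57BL/6 array measured Gm10499 well above background, its level there is a bound. Against the lowest signal among probes well above background on each C57BL/6 array, Gm10499 was 8.35-fold higher in DBA/1. That is no firm bound, because some probes not well above background gave higher signals. Against the highest signal among probes not well above background, a stricter limit, Gm10499 was at least 6.37-fold higher. Both values hold for this processing only, and with normexp, given below, the difference was under 2-fold. The measured difference of the means was 3.46 ± 0.282 (SE). Between the arrays of slide columns 1 to 4 it was 3.59, 3.79, 3.31 and 3.15. Bulk RNA cannot tell more cells that make a transcript from more RNA per cell, for H2-Bl and Gm10499 alike.

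**Figure D1:**
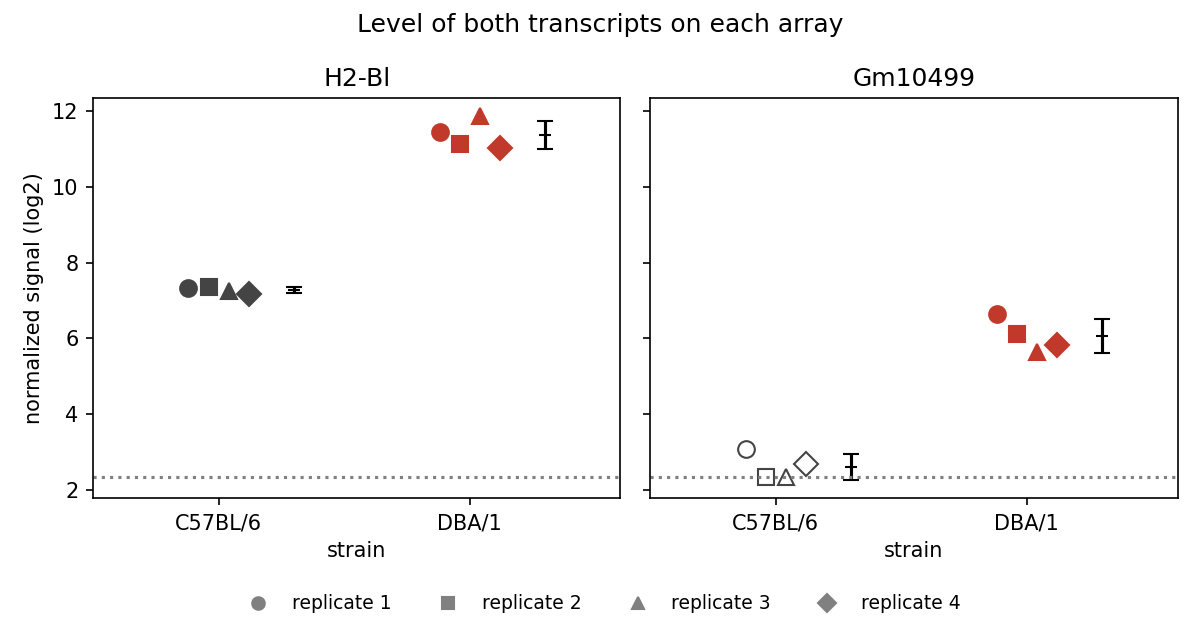
The y axis gives the normalized signal (log2) of H2-Bl and Gm10499 and the x axis the strain. Each symbol is 1 mouse, open symbols are spots not well above background, black bars are the mean ± SD of 4 mice, and the dotted line is the floor at 2.32. The strains do not overlap for either transcript, and the 4 C57BL/6 spots of Gm10499 lie at or near the floor.

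The same order of the strains was seen in the background-subtracted intensities before any scaling between arrays. H2-Bl gave 167, 151, 171 and 217 intensity units in C57BL/6. It gave 2272, 1869, 1907 and 2349 in DBA/1, so the ratio of the mean intensities was 11.9. The error that the scanner software assigns was 10 to 10.1% of each value. Gm10499 gave 8.44, 3.80, 4.48 and 8.56 units in C57BL/6, with errors of 27.8 to 56.9%. In DBA/1 it gave 86.9, 59.5, 31.8 and 58.4 units, with errors of 10.5 to 12.6%, and the ratio of the means was 9.36.

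The software's background-subtracted signal of each spot was also set against the SD of its background pixels. For H2-Bl this signal was 24.6 to 33.5 SDs in C57BL/6 and 315 to 423 SDs in DBA/1. For Gm10499 it was 0.525 to 1.33 SDs in C57BL/6 and 4.97 to 16.0 SDs in DBA/1. The local background of these spots was alike in the strains, with medians from 11.5 to 16 units over both probes and all 8 arrays. No spot of either probe was saturated or flagged as an outlier.

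**Figure D2:**
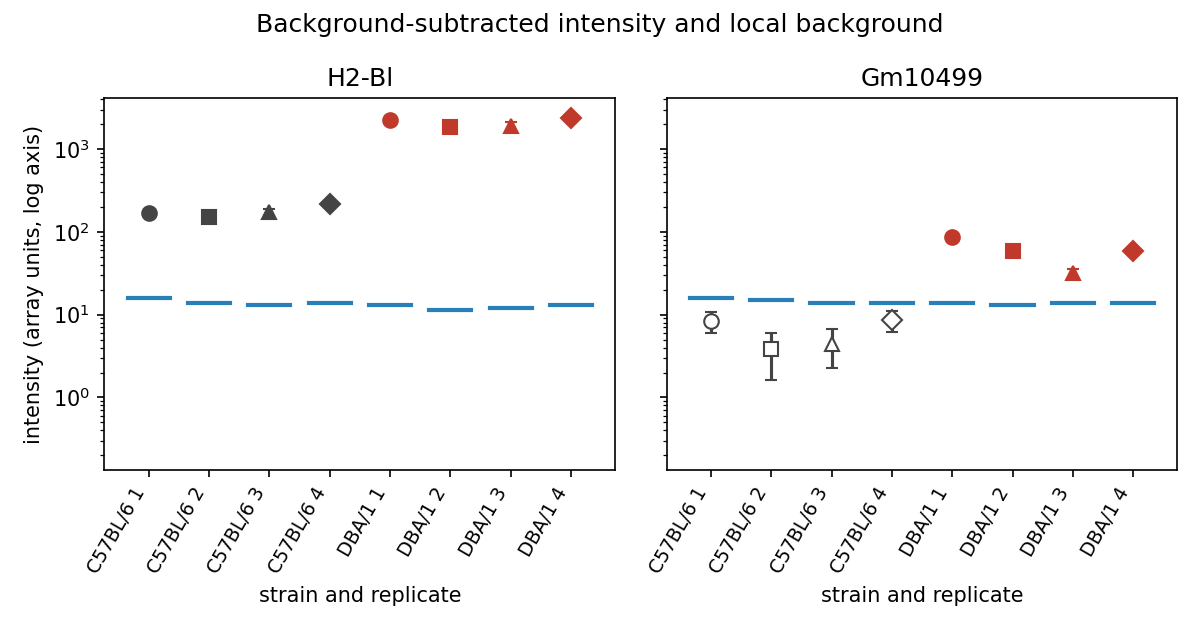
The y axis gives the background-subtracted intensity in array units on a log axis, and the x axis gives the strain and replicate. Points with bars are the intensity ± the error assigned by the scanner software, open points are spots not well above background, and blue lines are the median local background. The 4 C57BL/6 points of Gm10499, already background-subtracted, lie below the median local background of their spots, and all 4 DBA/1 points lie above it.

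Over all probes the DBA/1 arrays tended to be dimmer, though the ranges of the strains overlapped. The 75th percentile of the intensities was 67.6 to 109 units in C57BL/6 and 47.1 to 75.03 units in DBA/1. Probes well above background numbered 29301 to 33350 per DBA/1 array, against 33045 to 36162 per C57BL/6 array. The scanner recorded 2 position numbers per array, taken here as slide row and slide column. The row number was 1 for all C57BL/6 arrays and 2 for all DBA/1 arrays, so it cannot be told apart from strain. Whether all 8 arrays shared a slide was not established here. Of 6 marker genes of brainstem neurons, only Tph2, the serotonin-synthesis enzyme of the raphe nuclei, is named in the lists used here, and it was well above background on all 8 arrays. Its strain difference was 1.64 (11.46 in DBA/1 and 9.82 in C57BL/6). Probes for markers of microglia, endothelium, lymphocytes, red cells and forebrain were not named, so the part of these cells was not tested.

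Both transcripts were called higher in DBA/1 by the first 3 of the rules applied here to the whole array, and the rule on detection was met by Gm10499 alone. At least a 2-fold change together with an unadjusted limma p under 0.05 was found for 348 of 32883 tested probes (1.06%). With the Benjamini-Hochberg adjusted p under 0.05 the count was 294 (0.894%). In 1330 of 31872 probes with 8 values (4.17%), all DBA/1 values lay above all C57BL/6 values. Detection on all 4 DBA/1 arrays and no C57BL/6 array, the pattern of Gm10499, was found for 42 of 60804 probes (0.0691%), and the reverse for 422. Among the 25975 tested probes that were well above background on all 8 arrays, 3 including H2-Bl had a difference in the same direction as large as that of H2-Bl, and 8 in either direction. A probe was tested only if 4 or more arrays detected it, whichever their strain. Gm10499 entered the tested set through its 4 DBA/1 arrays alone, so its entry depended on the strain in which it was higher. Since both were also chosen for this difference, nothing is read from these shares or from the calls of H2-Bl and Gm10499.

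The spread between mice of one strain differed between the transcripts. The DBA/1 SD of H2-Bl was larger than that of 64.3% of tested probes, and its C57BL/6 SD was larger than that of 3.95%. For Gm10499 these shares were 73.9% and 75.3%, the second of them resting on 2 values at the floor. Over all tested probes the median SD was 0.307 in DBA/1 and 0.254 in C57BL/6. The DBA/1 SD of H2-Bl fell to 0.248 when outlier spots elsewhere on the arrays were kept, and to 0.200 under scaling to the 75th percentile, whereas that of Gm10499 stayed between 0.436 and 0.446 under these settings. With the outlier spots kept, the DBA/1 values of H2-Bl were 11.44, 11.09, 11.66 and 11.25, so replicate 3 was again the highest but replicate 2 and not replicate 4 was the lowest.

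The lists used here name 8 more H2 probes under 7 gene names. Those of H2-D1 and H2-L lie close together, at -816.1, -814.4 and -813.8 kb from the H2-Bl probe. The study had picked all 8 probes on these arrays, so their direction is not independent evidence. All 8 means were higher in DBA/1, by 1.06 to 2.08 with a median of 1.34, against a median of -0.01 over all tested probes. All DBA/1 values lay above all C57BL/6 values in 6 of the 8 (H2-Q6 with an outlier spot left out), against 4.17% of all probes with 8 values, and 5 were called at the adjusted p with at least a 2-fold change, against 0.894% of all tested probes. Because of that choice, nothing is read from the counts. Of 28 genes of class I antigen presentation, 5 had a named probe (H2-D1, H2-L, H2-Q1, H2-Q6 and H2-T24), and 3 of these were higher by that rule and none lower. The largest difference among the 8 was that of H2-Q1, a nonclassical class I gene, at 2.08 (9.10 ± 1.40 in DBA/1 and 7.02 ± 0.172 in C57BL/6, SD, n = 4 each). H2-DMa, which helps load peptides on class II molecules, differed by 1.11.

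H2-T24, a nonclassical class I gene of the T region, is the coding gene that the study pairs with Gm10499 as its neighbour. Its listed transcript ends 59.6 kb before that of H2-Bl and 121.2 kb before that of Gm10499. Its values were 3.60, 3.93, 3.52 and 4.07 in C57BL/6 and 4.53, 4.25, 5.94 and 5.72 in DBA/1. The strains did not overlap, and the means differed by 1.33 (5.11 ± 0.841 and 3.78 ± 0.265, SD, n = 4). H2-T24 was well above background on all 8 arrays, unlike Gm10499.

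Within 1 Mb on either side of the H2-Bl probe, 12 listed probes were placed, and 9 of the 10 besides H2-Bl and Gm10499 had higher means in DBA/1. The exception was Ddx39b, an RNA helicase gene, at -1.43. The difference closest to those of H2-Bl and Gm10499 was that of AK017289, a noncoding transcript, at 2.52. Lta, which encodes lymphotoxin alpha, differed by 2.18. Only probes that the study picked for a change carry names and positions, so nothing is read from the count of 9 of 10. For the same reason the other genes of the region, the 5 between H2-Bl and Gm10499 included, were not analysed here. Of 32883 tested probes, 348 were called higher and 1100 lower at 2-fold with an unadjusted limma p under 0.05.

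**Figure D3:**
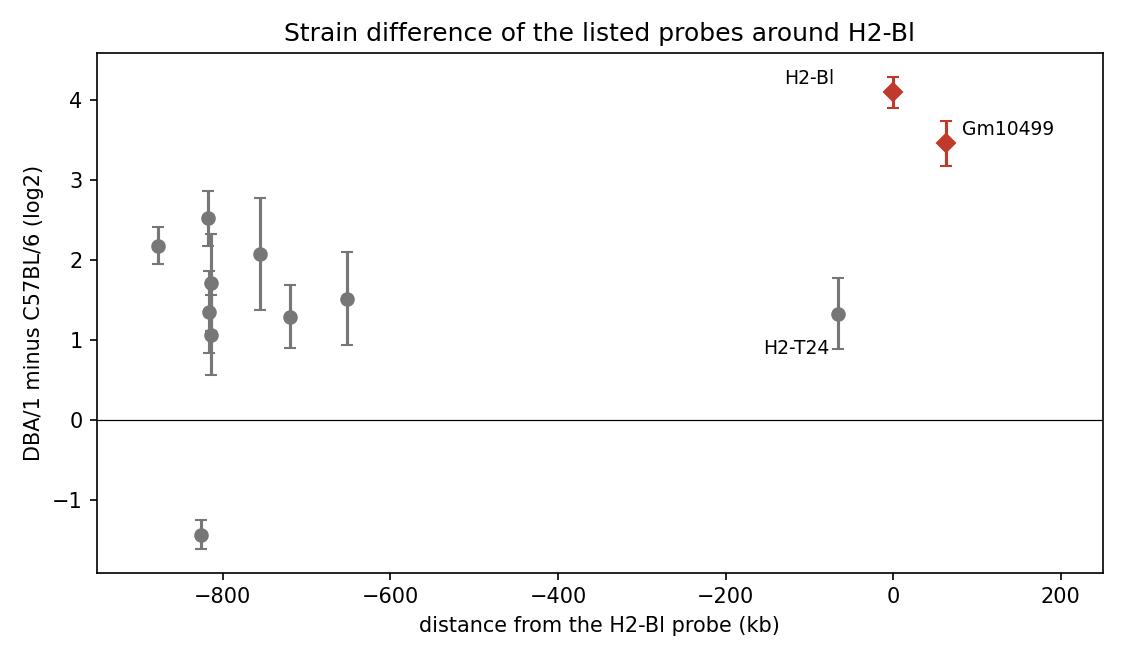
The x axis gives the distance from the H2-Bl probe in kb and the y axis the DBA/1 minus C57BL/6 difference (log2). Diamonds are H2-Bl and Gm10499, circles the 10 other listed probes, and bars the SE. H2-Bl at 4.10 and Gm10499 at 3.46 stand above the others, which run from -1.43 to 2.52.

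The DBA/1 mice were ordered differently by H2-Bl and Gm10499 than by the other H2 probes. In all 8 other H2 probes, the measured values of replicates 3 and 4 of DBA/1 were higher than both other replicates where these were measured. An outlier spot left no value for H2-L on replicate 3 and for H2-Q6 on replicate 2. H2-L was 11.10 and 10.83 on replicates 1 and 2 and 12.22 on replicate 4. H2-Q6 was 8.79 on replicate 1 and 10.65 and 10.27 on replicates 3 and 4.

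Gm10499 ran the other way, with 6.65 and 6.11 on replicates 1 and 2 and 5.63 and 5.83 on replicates 3 and 4. H2-Bl took neither order, with replicate 3 highest and replicate 1 next after normalization. In the unscaled intensities H2-Bl also took neither order, but replicate 4 was highest (2349 units), then replicates 1 (2272), 3 (1907) and 2 (1869). Replicate 3 of DBA/1 was the dimmest array, with a 75th percentile of 47.1 units. The DBA/1 SDs of the 8 other probes were 0.456 to 1.40, each larger than the 0.377 of H2-Bl and the 0.441 of Gm10499. Before scaling, Gm10499 on replicates 2 and 4 gave 59.5 and 58.4 units, with errors of 10.6 and 10.8%. Tph2, which is no H2 gene, also had replicates 1 and 2 (11.68 and 11.53) above replicates 3 and 4 (11.46 and 11.18). How many of all probes show either order was not counted. The order of the mice was noticed in these values and was not tested.

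**Figure D4:**
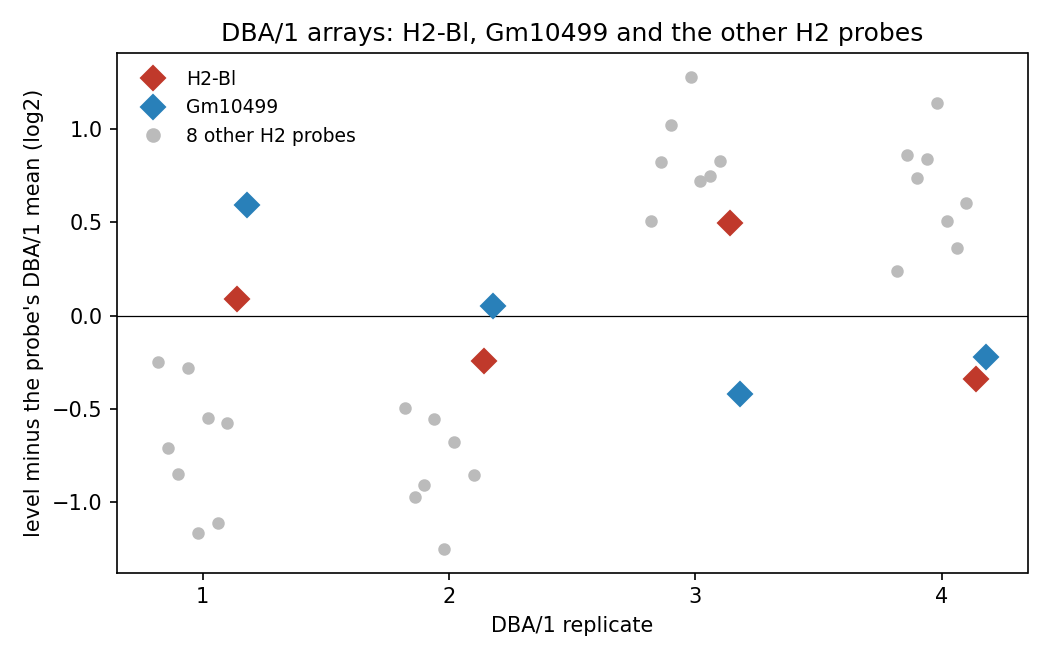
The x axis gives the DBA/1 replicate and the y axis the level minus the probe's own DBA/1 mean (log2), with points set side by side within a replicate. Each point is 1 probe in 1 mouse. Gray points of the 8 other H2 probes are all below 0 on replicates 1 and 2 and above 0 on replicates 3 and 4, while Gm10499 is above 0 on replicates 1 and 2 and below 0 on the others.

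The listed probes whose pattern was most like that of each transcript lay on other chromosomes. Likeness was the root mean square difference of log2 values over the 8 arrays, after each probe's mean was subtracted, among 1168 other listed and tested probes. For H2-Bl these were AK010878 on chromosome 12 (0.206), Gm11762 on chromosome 11 (0.208) and Tescl on chromosome 7 (0.408). For Gm10499 they were Ccnb1ip1, a meiotic gene, on chromosome 14 (0.339), and Gm13242 (0.387) and AK019984 (0.398) on chromosome 4. All 6 differed between the strains by 2.89 to 4.401, and the measure is set mainly by that difference.

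The means of both transcripts were higher in DBA/1 under every processing alternative tried. The difference of H2-Bl ran from 3.67 to 4.21. That of Gm10499 ran from 0.905 to 3.61, and the lowest value came from normexp background correction with an offset of 50, which lifts dim spots. Under it the DBA/1 values of Gm10499 began at 6.52 and the C57BL/6 values ended at 6.03, so the strains did not overlap, but the difference was under 2-fold and Gm10499 was not called by the rules that need that fold.

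**Figure D5:**
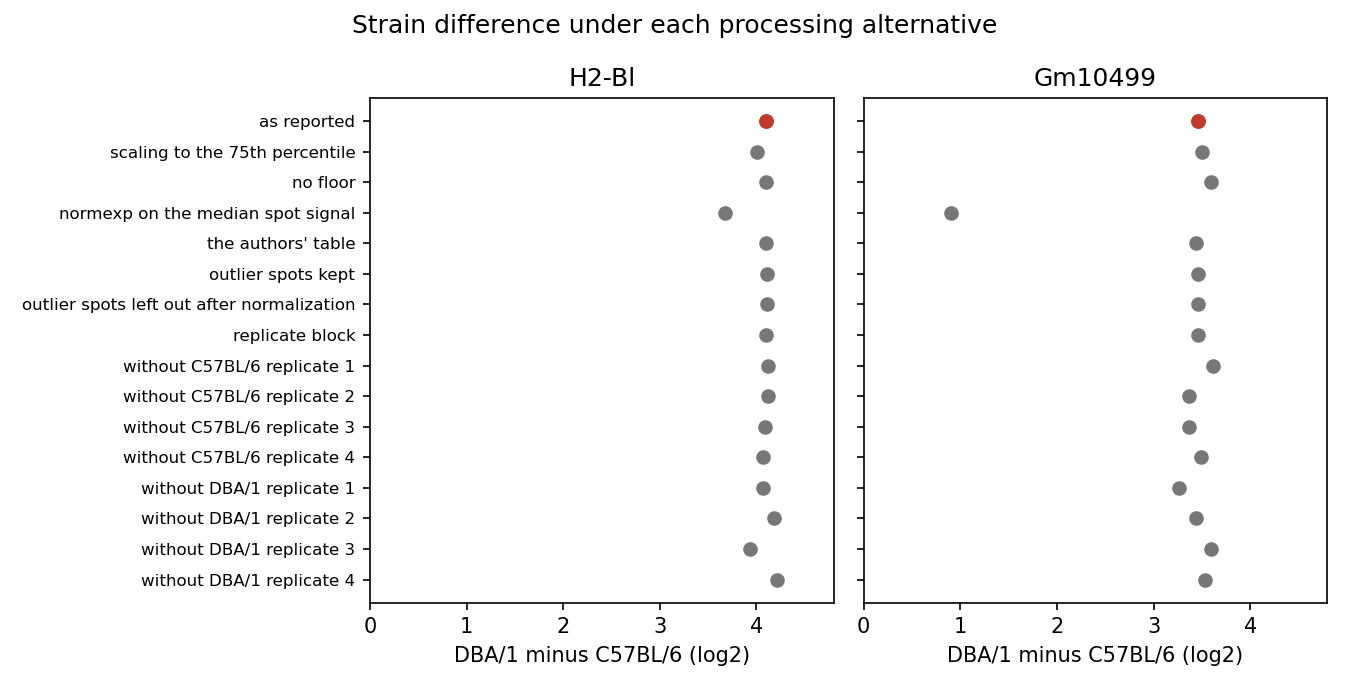
The x axis gives the DBA/1 minus C57BL/6 difference (log2) and each line is 1 processing alternative, with the reported value in red. H2-Bl stays between 3.67 and 4.21, and Gm10499 stays between 3.26 and 3.61 except for 0.905 with normexp.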

How the data were processed

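Brainstem RNA was depleted of rRNA, labelled with Cy3 by random priming along the transcripts and hybridized to 1-colour Arraystar mouse lncRNA arrays. The deposited scanner files hold intensities from Agilent Feature Extraction 11.0.1.1, background-subtracted and not scaled between arrays. The authors' table holds log2 quantile-normalized values with a floor, and it differed by at most 0.0539 from values recomputed above the floor.

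Here spots of a probe were averaged without control and outlier spots, intensities under 5 were set to 5, arrays were quantile-normalized and log2 was taken. Of the probes in the authors' table, those well above background on at least 4 of 8 arrays were fitted as DBA/1 minus C57BL/6 with limma 3.58.1 in R 4.3.3 (lmFit, eBayes, Benjamini-Hochberg). The 8 arrays limit the precision. Intensity errors are those of the scanner software. The script was tested on simulated data, and Python 3.11.15 joined the tables.

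H2-Bl, Gm10499 and all lists were chosen with earlier results of these data known. Named besides are H2-T24, the listed H2 probes and, per transcript, the 3 listed probes of most similar pattern. Other probes within 1 Mb, and Tph2, were named after their values were seen. Names, positions and probe sequences come from the study's lists of 1195 probes, and 715 of 753 with a matched gene lay inside it in GRCm38.p6. A genome sequence was not used here. Alternatives were another scaling, no floor, normexp, the authors' table, outlier spots kept or left out after normalization, other filters, the methods' t-test, a replicate block, a fold of 1.5 and each mouse left out.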

Additional observations from a re-analysis of the deposited data

How the results depend on the processing

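Leaving out a mouse or adding a replicate block cannot move a difference by as much as the spread between mice. The outcome of those alternatives was therefore fixed in advance. Counting them, the differences of H2-Bl and Gm10499 moved by less than that spread (0.273 and 0.399) in 14 of 15 alternatives each. The exception was normexp on the median spot signal, with 3.67 for H2-Bl and 0.905 for Gm10499, under 2-fold, and with it 97 probes were called higher, and 86 after adjustment. With each mouse left out in turn, H2-Bl ran from 3.94 to 4.21 and Gm10499 from 3.26 to 3.61, the counts from 335 to 412, and from 268 to 334 after adjustment. Only 218 probes were called higher among those well above background on all 8 arrays, where fewer were tested. At a fold change of 1.5 the counts were 1136 and 481. Leaving outlier spots out after normalization, chosen after seeing the data, gave 4.11 and 3.46. Outlier spots were bright, with medians of 5724 to 10490 units against 8.18 to 19.2 for other spots, and 197 to 914 were flagged per array, so leaving them out before quantile normalization moves bright probes such as H2-Bl.

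Same-numbered mice shared the position number taken here as slide column. Their deviations from the strain means correlated at 0.376, 0.0215, 0.135 and 0.352 for numbers 1 to 4. Number 2 did not match its own number best, so the numbers were not taken as pairs. A replicate block leaves the differences at 4.10 and 3.46 by design, because each number has 1 mouse of each strain. With the block, 345 probes were called higher, and 314 after adjustment. The signal of Gm10499 over background in C57BL/6 gives only a bound on its level there.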
